A study of Homo sapiens with 6 samples.

Results

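The genes described here are the ubiquitin-conjugating enzymes, taken as every gene of the deposited count table whose symbol starts with UBE2. There were 41 of them among 23285 genes. A filter on low counts left 39 of the 41 members and 15876 of all genes for testing. The members left out were UBE2U, with a count of 0 in all 6 libraries, and UBE2DNL, with 1 read in non-specific siRNA replicate 3. The prefix also takes in genes that are not active enzymes. Among them are the pseudogenes UBE2MP1, UBE2Q2P1, UBE2Q2P2 and UBE2Q2P3 and the read-through gene UBE2F-SCLY, with which UBE2DNL was classed. UBE2V1, described below, is an inactive partner of UBE2N.

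The libraries were made from mRNA of PC3, a line from a bone metastasis of prostate cancer. Cells grown in RPMI 1640 with fetal serum received a non-specific siRNA in the control group and an siRNA against paxillin, a focal adhesion adaptor encoded by PXN, in the other. RNA was collected 72 h later, with 3 libraries per group and the replicate numbers 1 to 3 in both. The comparison asks which transcripts differ when paxillin is reduced by the siRNA. The groups differ in the siRNA given as well as in paxillin, and effects of these cannot be told apart here. All libraries came from 1 cell line, and an untransfected group is not analysed here. The sources do not say whether the 3 libraries of a group were separate cultures, so a p-value here rests on the spread between libraries alone, and that spread may be technical.

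Ubiquitin is attached to proteins by a relay of enzymes. An E1 activates ubiquitin with ATP, an E2 takes it over on a cysteine of its active site, and an E3 brings the loaded E2 to a substrate. The E2 often decides which chain is built, and so whether the substrate goes to the proteasome or is used in signalling. UBE2C and UBE2S start and extend chains for the anaphase-promoting complex, the E3 that ends mitosis, and UBE2T works with FANCL in the Fanconi anemia pathway of crosslink repair. UBE2L6 is the E2 for ISG15, a ubiquitin-like protein induced by interferon. Some members serve other modifiers, as UBE2M and UBE2F do for NEDD8.

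Some members are close in coding sequence to another, which bears on how their values can be read. UBE2NL is a copy of UBE2N, the E2 that builds signalling chains, and UBE2MP1 is a pseudogene of UBE2M. Over the coding bases of the parent, UBE2NL was 95.4% identical to UBE2N, with 21 different bases of 459 aligned and 1 gap. UBE2MP1 was 97.1% identical to UBE2M, with 16 different bases of 550. The stretches of 80 coding bases with the most differences follow, from the transcripts of GENCODE on GRCh38, with capitals where parent and copy differ.
UBE2N: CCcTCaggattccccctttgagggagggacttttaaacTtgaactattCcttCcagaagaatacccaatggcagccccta
UBE2NL: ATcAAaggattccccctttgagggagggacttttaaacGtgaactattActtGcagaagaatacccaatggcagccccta
UBE2M: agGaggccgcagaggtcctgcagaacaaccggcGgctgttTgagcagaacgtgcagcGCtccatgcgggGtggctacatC
UBE2MP1: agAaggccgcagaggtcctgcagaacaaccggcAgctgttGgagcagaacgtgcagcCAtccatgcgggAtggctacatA
Each of these stretches held 7 differing bases. Of all 50-base windows of the copy's transcript, 5.4% (61 of 1136) of UBE2NL and 31.1% (156 of 501) of UBE2MP1 were also in the parent's transcript letter for letter, so most windows of either copy differ from the parent. The estimated counts of UBE2NL were 95.9% to 99.2% of those of UBE2N in the 6 libraries, and those of UBE2MP1 were 125% to 137% of those of UBE2M. The values of both pairs are reported as uncertain, because the sources used here do not say how the authors' counting shared such reads.

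The promoters of UBE2T and UBE2S, which belong to the mitotic and replication-linked class, are shown for the motifs often found in cell cycle genes. RefSeq gave promoter windows (GRCh38.p14, 250 bases before to 50 after a start site) for 28 of the 41 members, in 40 windows. The letters searched on both strands were CCAAT (the CCAAT box, ATTGG on the other strand), TTTGAA and TTCGAA (the core of the cell cycle genes homology region and a variant) and GAAA, any 2 bases and GAAA (the core of the interferon-stimulated response element). The 250 bases before the start site are printed 5′ to 3′ on the minus strand, with matches in capitals. They lie at chr1:202341937-202342186 for UBE2T and chr19:55407789-55408038 for UBE2S.
UBE2T: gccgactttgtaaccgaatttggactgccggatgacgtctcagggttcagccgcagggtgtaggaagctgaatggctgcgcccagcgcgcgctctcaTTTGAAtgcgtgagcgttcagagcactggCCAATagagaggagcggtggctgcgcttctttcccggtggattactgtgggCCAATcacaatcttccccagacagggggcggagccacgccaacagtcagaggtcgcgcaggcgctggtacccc
UBE2S: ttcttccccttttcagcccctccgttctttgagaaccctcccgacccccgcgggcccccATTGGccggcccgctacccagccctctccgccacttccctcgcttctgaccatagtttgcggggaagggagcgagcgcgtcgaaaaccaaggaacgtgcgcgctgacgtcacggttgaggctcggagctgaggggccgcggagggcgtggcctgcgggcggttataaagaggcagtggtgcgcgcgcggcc
UBE2T held CCAAT at 124 and 73 bases before its start site and TTTGAA at 153 bases before it, and UBE2S held ATTGG at 191 bases before it. None of the letters was in the windows of UBE2L6, UBE2QL1 or UBE2G2. Over the members with a window, 10 of 28 held a CCAAT box, 4 held TTTGAA, 0 held TTCGAA and 1, UBE2D3, held the interferon response core. Counted by window, 12 of 40 held a CCAAT box, 4 TTTGAA, 0 TTCGAA and 1 the interferon response core. The windows of UBE2F and UBE2F-SCLY overlap, so their matches were counted for both. Of 35116 promoters of the same length, 34.6% held a CCAAT box, 15.2% TTTGAA, 1.4% TTCGAA and 3.6% the interferon response core. A match describes the letters of a window and is not a binding site.

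The siRNA lowered its target in every library. PXN was at 835, 854 and 718 CPM (counts scaled to library size with TMM factors) in control replicates 1, 2 and 3 and at 59.2, 55.7 and 91.7 CPM in the paxillin siRNA replicates, a log2 fold change of -3.54 ± 0.24 (SE, edgeR adjusted p = 0.00613). The estimated counts of a library summed to 25252317 to 30394729, equal to about 22200000 to 33600000 single reads, and 3 reads, the upper limit that a count of 0 allows, were 0.0898 to 0.142 CPM. Among markers of other cells, 6 of 7 leukocyte genes, all but CD68, had a mean over the 6 libraries under 1 CPM, as did 2 of 7 fibroblast, 3 of 5 endothelial and 2 of 7 genes of hormone-responsive prostate lines. The summed level of those lists was 35.6 to 50.5 against 56.3 to 89.2 CPM for leukocyte, 80.2 to 160 against 83.9 to 144 CPM for fibroblast, 78.1 to 115 against 136 to 149 CPM for endothelial and 68.3 to 118 against 107 to 134 CPM for prostate markers (non-specific against paxillin siRNA). The endothelial sum was mostly KDR (93.0 ± 19.2 against 140.2 ± 6.24 CPM, SD, n = 3), with PECAM1 at 3.34 ± 0.66 against 3.63 ± 1.87 CPM and CDH5, VWF and TEK under 1 CPM in every library. KLK2 and KLK3, of the prostate list, were at most 0.0455 CPM. The part of these markers in the results was not tested.

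Libraries of a group did not all look alike. Over 18 genes of mitosis, none of them a UBE2 member, the mean log2 level relative to the mean of all 6 libraries was 0.37, 1.01 and 0.40 in control replicates 1, 2 and 3 and -1.03, -0.83 and 0.08 in the paxillin siRNA replicates. Non-specific siRNA replicate 2 thus had the highest level of these genes, and paxillin siRNA replicate 3 was nearer to the control libraries than to its own group. Over 15 interferon-induced genes the same values were -1.25, -0.55 and -1.36 against 0.95, 1.63 and 0.58, with no overlap between groups. These were bulk libraries, so fewer cells of a kind and less RNA per cell cannot be told apart.

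With paxillin siRNA, 3 of 39 tested members fell (UBE2QL1, UBE2C and UBE2G2) and 1 rose (UBE2L6), at an adjusted p under 0.05 in edgeR's quasi-likelihood test. Over all 15876 genes tested, 0.302% were called lower and 0.882% higher. With the replicate number as a block, 7 members were lower, now with UBE2T, UBE2V1, UBE2S and UBE2E3, and 2 were higher, now with UBE2Q2P3, against 10.7% lower and 11.7% higher over all genes. The 2 higher members were 5.13% of those tested, which is not above that background, and the 7 lower ones were 17.9%. Counts with the block by class or list below stand beside the same shares of all genes, 10.7% lower and 11.7% higher. Counts at an unadjusted p under 0.05 without the block stand beside 3565 of the 15876 genes, both directions together. Of the 39 members, 15 (38.5%) had all 3 paxillin siRNA values below all 3 control values, against 14.6% of all genes. Another 2 (5.13%) had them above, against 13.6%. With no TMM factor 10 members were lower and 2 higher in this way, against 12.6% and 15.6% of all genes. The estimated change was below 0 for 30 members and above 0 for 9, with a median log2 fold change of -0.17 against 0.00 for all genes tested. The 15 and the 30 both hold UBE2N with UBE2NL and UBE2M with UBE2MP1, near copies whose values are uncertain and not independent. With no TMM factor, 28 were below 0 and 11 above, with a median of -0.11 against 0.06 for all genes.

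**Figure D1:**
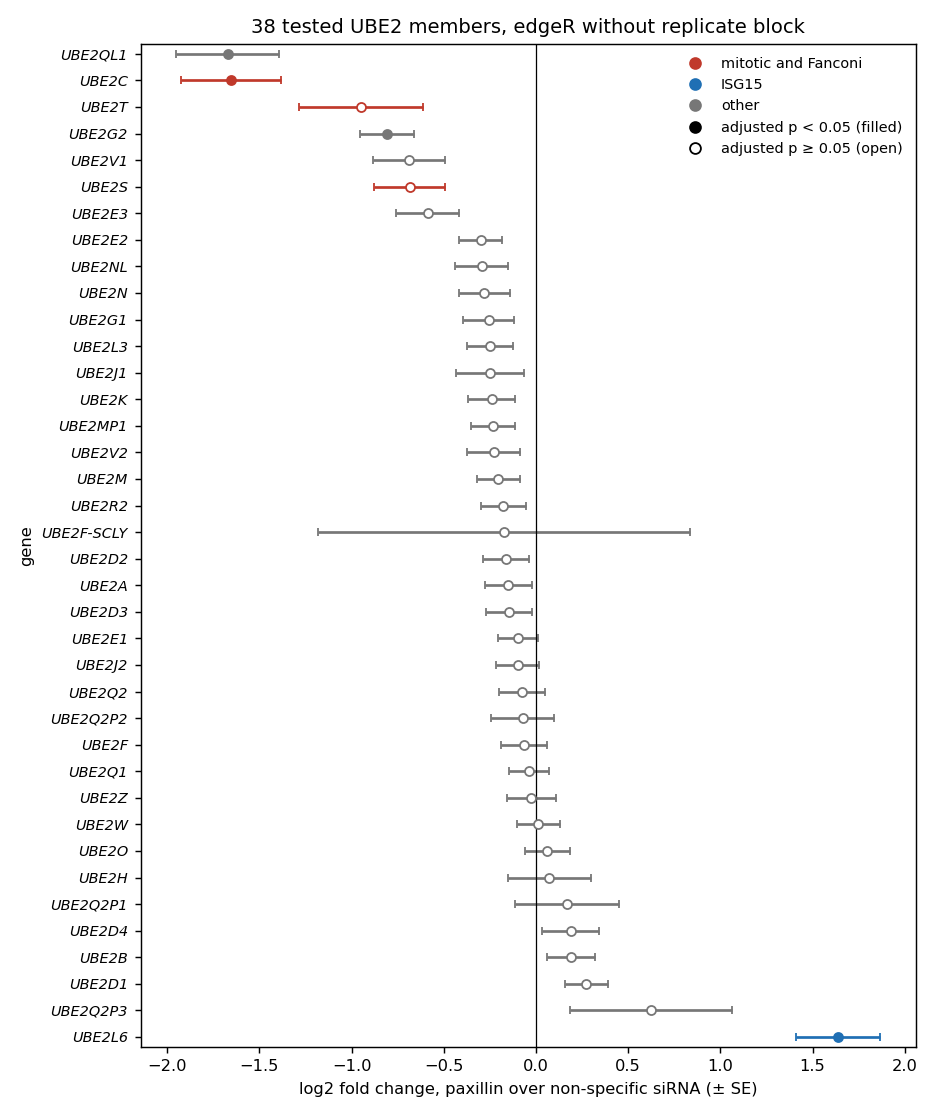
Log2 fold change (paxillin over non-specific siRNA) with its SE for 38 of the 39 tested UBE2 members, ordered by value and coloured by class, with filled points where the edgeR adjusted p was under 0.05. UBE2QL1, UBE2C and UBE2G2 are the filled points below 0, UBE2L6 is the filled point above 0 at 1.64, and most other members lie within 0.3 of 0.

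The mitotic and replication-linked class held UBE2C, UBE2S and UBE2T. All 3 had estimates below 0, with a median log2 fold change of -0.95, and 1 of 3 passed the test without the block and 3 of 3 with it. UBE2C (chromosome 20, 44441255 to 44445596, hg19) was at 45.4, 61.7 and 34.7 CPM in control replicates 1, 2 and 3 and at 13.4, 11.5 and 20.1 CPM in the paxillin siRNA replicates. Every paxillin siRNA value lay below every control value, with the highest control in replicate 2 and the highest paxillin siRNA value in replicate 3. UBE2C fell to 31.8% of its control mean, a log2 fold change of -1.65 ± 0.27 (SE, edgeR adjusted p = 0.0410). UBE2C was still called without non-specific siRNA replicate 3 and without paxillin siRNA replicate 3, and not when any of the other 4 libraries was left out; its log2 fold change was -1.42 without control replicate 2 and -1.93 without paxillin siRNA replicate 3.

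UBE2S (chromosome 19, 55912650 to 55919325), which lengthens the chains that UBE2C starts, was at 111, 154 and 107 CPM with non-specific siRNA and at 62.97, 79.4 and 88.7 CPM with paxillin siRNA. The groups did not overlap, and control replicate 2 was again the highest. Its log2 fold change was -0.69 ± 0.19 (SE, edgeR adjusted p = 0.103), and it was called with the replicate block (adjusted p = 0.00652). It was -0.50 without control replicate 2 (edgeR adjusted p = 0.210) and -0.80, and called, without paxillin siRNA replicate 3 (adjusted p = 0.0375). UBE2T (chromosome 1, 202300785 to 202311094) was at 7.28, 15.7 and 8.70 CPM with non-specific siRNA and at 4.84, 4.21 and 7.32 CPM with paxillin siRNA. The groups overlapped, because paxillin siRNA replicate 3 was level with control replicate 1, and control replicate 2 stood far above the other 5 libraries. The log2 fold change of UBE2T was -0.95 ± 0.34 (SE, edgeR adjusted p = 0.157), or -0.55 without non-specific siRNA replicate 2 and -1.22 without paxillin siRNA replicate 3 (adjusted p = 0.334 and 0.0523), and the call with the replicate block had an adjusted p of 0.0297.

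**Figure D2:**
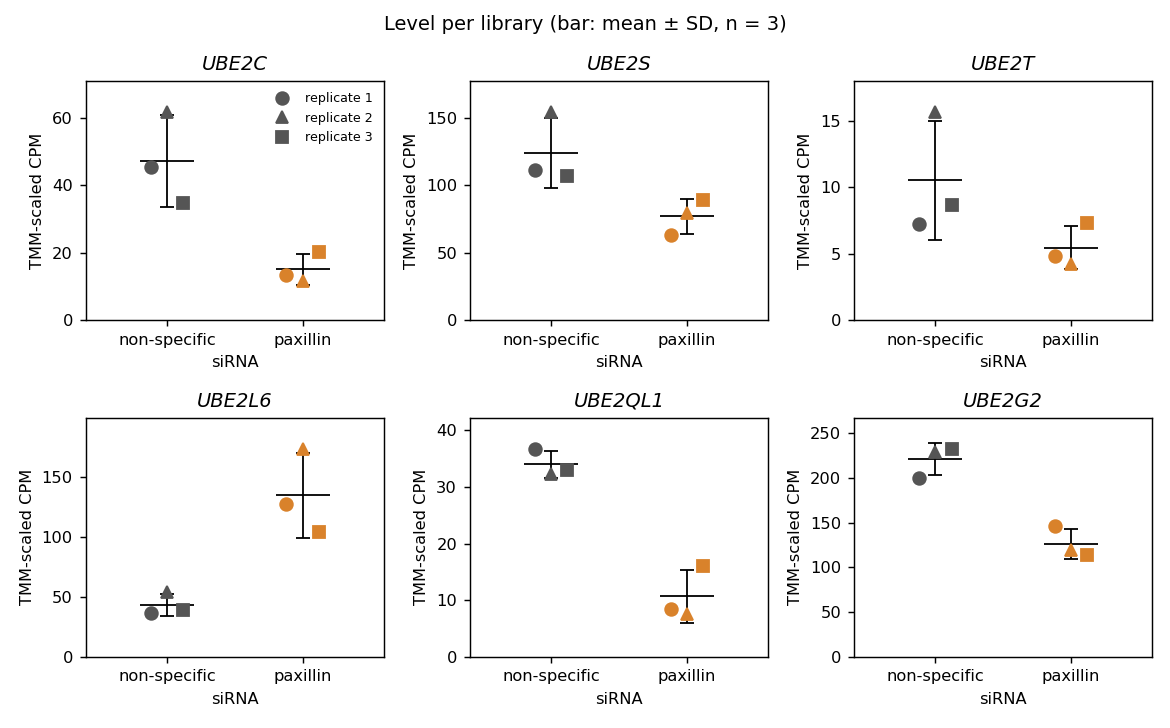
TMM-scaled CPM of 6 UBE2 members in each library, with replicate numbers as symbols and the mean ± SD of 3 libraries as bars; each panel has its own axis from 0. UBE2C, UBE2S, UBE2QL1 and UBE2G2 have every paxillin siRNA value below every control value, UBE2L6 has every one above, and UBE2T overlaps.

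The levels of these 3 members lay beside those of the mitosis genes in the same libraries. Relative to its mean over the 6 libraries, UBE2C was at 0.79, 1.23 and 0.41 (log2) in the controls and at -0.93, -1.14 and -0.36 with paxillin siRNA. UBE2T was at -0.01, 1.05 and 0.24 against -0.55, -0.73 and 0.00, and UBE2S at 0.20, 0.67 and 0.14 against -0.61, -0.28 and -0.12. In each of them control replicate 2 was the highest library and paxillin siRNA replicate 3 the highest of its group, as in the mitosis list. This order was not particular to the class: UBE2V1 and UBE2E3 had it too, while UBE2QL1 and UBE2G2 did not. The 18 mitosis genes had a median log2 fold change of -1.10, with 0 called by edgeR without the block (18 with an unadjusted p under 0.05) and 18 called lower with it. Those with the smallest p were KIF11, a spindle motor (39.0 ± 7.44 against 16.5 ± 7.28 CPM, SD, n = 3), CDK1, the mitotic kinase (81.5 ± 20.7 against 26.4 ± 15.8 CPM), and TOP2A, a topoisomerase (111 ± 18.8 against 32.6 ± 23.1 CPM). The part of these genes in the UBE2 results was not tested.

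**Figure D3:**
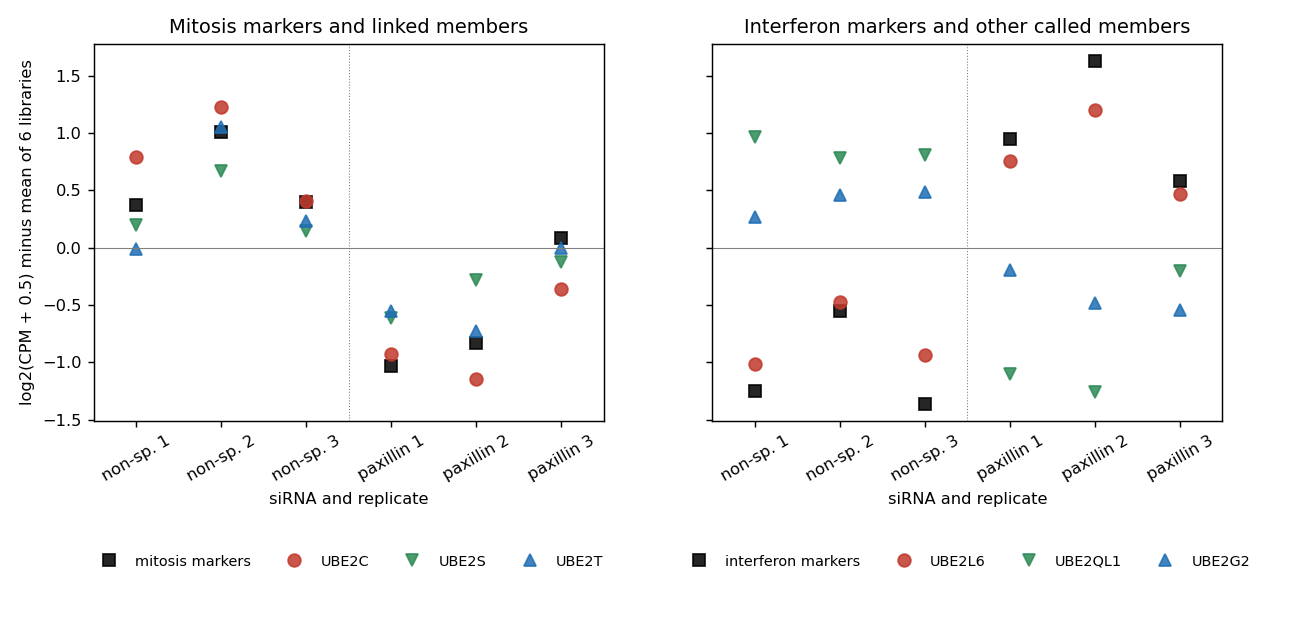
Level in each of the 6 libraries, as log2(CPM + 0.5) minus the mean of the 6 libraries; the left panel has the mean of 18 mitosis markers with UBE2C, UBE2S and UBE2T, and the right panel the mean of 15 interferon markers with UBE2L6, UBE2QL1 and UBE2G2. On the left the highest points are in non-specific siRNA replicate 2, and on the right UBE2L6 and the interferon markers are highest in paxillin siRNA replicate 2.

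Of the 15 genes of the anaphase-promoting complex, its activators and its inhibitor, 0 were called by edgeR without the block (3 lower and 0 higher had an unadjusted p under 0.05), 3 were called lower with it, and the median log2 fold change was -0.07. The 3 were FBXO5, CDC20 and CDC27. FBXO5, an inhibitor of the complex, was at 17.0 ± 3.30 CPM with non-specific and 8.63 ± 0.99 CPM with paxillin siRNA (log2 fold change -0.97 ± 0.19, SE, edgeR adjusted p = 0.0528, block 0.00289). CDC20, its mitotic activator, was at 63.02 ± 24.04 against 28.4 ± 7.93 CPM (adjusted p = 0.0900, block 0.00332). CDC27, a core subunit, was at 199 ± 2.02 against 139.5 ± 37.3 CPM (adjusted p = 0.170, block 0.0194). The other subunits of the complex passed neither fit.

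Among 12 genes of the Fanconi ubiquitination step served by UBE2T, 0 were called without the block (4 with an unadjusted p under 0.05), 4 were called lower with it, and the median log2 fold change was -0.28. FANCD2, a substrate of UBE2T and FANCL, had the smallest p, at 21.4 ± 8.23 against 8.37 ± 1.18 CPM (log2 fold change -1.36 ± 0.27, SE, edgeR adjusted p = 0.0584, block 0.00108). USP1, which removes that ubiquitin, was at 63.7 ± 7.65 against 45.2 ± 9.46 CPM (block adjusted p = 0.0335). FANCB, a subunit of the core complex, was at 4.90 ± 1.84 against 2.495 ± 0.91 CPM (block adjusted p = 0.0288). The remaining one was FANCI, the partner of FANCD2, with a log2 fold change of -0.88, named after its value was seen. For FANCD2, USP1 and FANCB alike, every paxillin siRNA value lay below every control value. They were named for their small p, so this follows in part from the choice. No others of the 12 genes lay wholly below, against 14.6% of all genes. Another 1 lay wholly above, against 13.6%.

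UBE2L6 was the 1 member of the ISG15 class and the 1 member that rose without the block. UBE2L6 (chromosome 11, 57319128 to 57335803) was at 36.9, 53.7 and 39.1 CPM in control replicates 1, 2 and 3 and at 127, 173 and 104 CPM in the paxillin siRNA replicates. The groups were far apart, and replicate 2 was the highest in both. UBE2L6 rose to 312% of its control mean, a log2 fold change of 1.64 ± 0.23 (SE, edgeR adjusted p = 0.0337). The log2 ratios of same-numbered libraries were 1.78, 1.69 and 1.41, so the rise was present in all 3 pairs. Without paxillin siRNA replicate 3 its log2 fold change was 1.79 (edgeR adjusted p = 0.00511), and without control replicate 2 it was 1.82 (adjusted p = 0.0773). Leaving out any library other than paxillin siRNA replicate 3 gave an adjusted p above 0.05 for UBE2L6, while its log2 fold change stayed between 1.42 and 1.83 over all settings tried.

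Of 7 genes of the ISG15 relay, which include no UBE2 member, 3 rose and 0 fell without the block, and 5 were higher and 0 lower with it, with a median log2 fold change of 1.92. UBA7, the E1 that activates ISG15, rose from 3.21 ± 0.70 to 16.6 ± 8.45 CPM (mean ± SD of 3 libraries), with a log2 fold change of 2.36 ± 0.43 (SE, edgeR adjusted p = 0.0495). HERC6, an E3 related to HERC5, rose from 11.2 ± 4.11 to 46.3 ± 13.6 CPM (adjusted p = 0.0340). USP18, the protease that removes ISG15, rose from 10.1 ± 2.56 to 32.3 ± 11.95 CPM (adjusted p = 0.0444). ISG15 itself was at 133, 199 and 121 CPM against 506, 888 and 318 CPM, with an adjusted p of 0.0554 without the block and 3.1e-05 with it. HERC5, the main ISG15 E3, was likewise called with the block and not without it (adjusted p = 0.0589 without it), and is named after its value was seen. TRIM25 and ARIH1, the remaining E3s of the list, had log2 fold changes of -0.07 ± 0.18 and -0.07 ± 0.13 (SE).

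Of the 15 interferon markers, 10 were called higher without the block and 15 with it, with a median log2 fold change of 2.27. IFI44L, an interferon-induced gene, rose from 30.1 ± 8.35 to 202 ± 72.1 CPM (edgeR adjusted p = 0.0206), and OAS2, a sensor of double-stranded RNA, rose from 90.8 ± 16.5 to 364 ± 108 CPM (adjusted p = 0.0252). Control replicate 2 was the highest control library for UBE2L6 and for this list. The part of the interferon genes in the UBE2L6 result was not tested.

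The 35 tested members outside these classes had a median log2 fold change of -0.16, with 27 below 0 and 8 above, and 30 of the 35 lay within 0.5 of 0. Of these, 2 fell and 0 rose without the block, against 0.302% and 0.882% of all genes. With the block 4 were lower and 1 higher, against 10.7% and 11.7%, and these counts are not read as a result about the class. The members that fell without the block were UBE2QL1 and UBE2G2. UBE2QL1 (chromosome 5, 6448736 to 6496834), a UBE2Q-like gene, was at 36.7, 32.2 and 33.0 CPM with non-specific siRNA and at 8.42, 7.49 and 16.1 CPM with paxillin siRNA. The controls were close to each other, and paxillin siRNA replicate 3 was the highest of its group but still below every control. UBE2QL1 fell to 31.4% of its control mean, a log2 fold change of -1.67 ± 0.28 (SE, edgeR adjusted p = 0.0429). It was 0.55 ± 0.26 FPKM (fragments scaled for transcript length and library depth, SD, n = 3) with paxillin siRNA, and on the log2(FPKM + 1) scale, which compresses low levels, its change was -0.88 (limma adjusted p = 0.0550). When 1 library was left out, UBE2QL1 and UBE2G2 were called only without paxillin siRNA replicate 3, with log2 fold changes of -2.10 and -0.74, against -1.71 and -0.78 without control replicate 2.

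The class linked to chains for the proteasome and to cullin E3s held UBE2G2, UBE2G1, UBE2K, UBE2R2 and UBE2H, of which 1 of 5 fell, and the median log2 fold change was -0.24. UBE2G2 (chromosome 21, 46188495 to 46221751) works with E3s of the endoplasmic reticulum in the removal of misfolded proteins. It was at 200, 229 and 232 CPM with non-specific siRNA and at 146, 119 and 114 CPM with paxillin siRNA. The groups did not overlap, and paxillin siRNA replicate 3 was here the lowest library and not the one nearest to the controls. UBE2G2 fell to 57.2% of its control mean, a log2 fold change of -0.81 ± 0.15 (SE, edgeR adjusted p = 0.0495), and the adjusted p was 0.0547 with no TMM factor. The remaining 4 of this class had log2 fold changes of -0.26 to 0.07. UBE2J1 and UBE2J2, the E2s anchored in the membrane of the endoplasmic reticulum, had log2 fold changes of -0.25 ± 0.19 and -0.10 ± 0.12 (SE), and neither passed the test.

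In the class of signalling chains and DNA damage tolerance, 0 of 6 were called without the block (1 with an unadjusted p under 0.05). With the block 1 was lower, against 10.7% of all genes, and the median log2 fold change was -0.25. UBE2V1 (chromosome 20, 48697661 to 48770335), the inactive partner that lets UBE2N build its chains, was at 244, 272 and 248 CPM against 142, 126 and 206 CPM. The groups did not overlap, and paxillin siRNA replicate 3 lay closest to the controls. Its log2 fold change was -0.69 ± 0.20 (SE, edgeR adjusted p = 0.104), with an adjusted p of 0.00812 in the fit with the block. It was -0.64 without control replicate 2 (edgeR adjusted p = 0.219) and -0.93, and called, without paxillin siRNA replicate 3 (adjusted p = 0.00867). Its locus is shared with TMEM189 (log2 fold change -0.17) and the read-through gene TMEM189-UBE2V1, which is listed at 0, so reads of the 3 may have been split. UBE2N and UBE2NL were at -0.28 ± 0.14 and -0.29 ± 0.14 (SE), values that are not independent given their sequence. UBE2V2, the other partner of UBE2N, was at -0.23 ± 0.14, and UBE2A and UBE2B, the human RAD6 enzymes that act with RAD18 and RNF20, were at -0.15 ± 0.13 and 0.19 ± 0.13.

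Among 8 E3s that work with these E2s at damaged DNA, 0 were called without the block (2 with an unadjusted p under 0.05) and 2 were lower with it, with a median log2 fold change of -0.25. RNF168, which marks histones beside breaks, was at 115 ± 14.7 against 83.4 ± 13.5 CPM (edgeR block adjusted p = 0.0180). HLTF, an E3 for PCNA, was at 112 ± 6.49 against 87.5 ± 14.02 CPM (block adjusted p = 0.0469). RNF20, an E3 for histone H2B, was at 39.9 ± 1.01 against 32.6 ± 4.48 CPM and passed neither fit.

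Of the 9 E2s that serve many ubiquitin ligases, 0 were called without the block (2 lower and 1 higher had an unadjusted p under 0.05). With the block 1 was lower, against 10.7% of all genes. UBE2E3 (chromosome 2, 181845112 to 181928150) was at 87.9, 102 and 86.1 CPM against 61.3, 48.3 and 74.0 CPM, without overlap, with a log2 fold change of -0.59 ± 0.17 (SE, edgeR adjusted p = 0.111, block 0.0157). It was -0.51 without control replicate 2 (edgeR adjusted p = 0.236) and -0.75, and called, without paxillin siRNA replicate 3 (adjusted p = 0.0216). UBE2E2 of the same family (chromosome 3, 23244784 to 23648882) was at 36.6, 36.4 and 32.7 CPM against 27.8, 28.3 and 29.8 CPM. Its groups did not overlap, and its log2 fold change was -0.30 ± 0.12 (SE, edgeR adjusted p = 0.187, block 0.0999). UBE2E1 was at -0.10 ± 0.11 (SE). The estimates of the UBE2D family differed in sign, and none of them passed either fit. UBE2D1, chosen after its values were seen, was at 28.7, 30.2 and 26.2 CPM against 33.9, 35.7 and 33.4 CPM, higher in every paxillin siRNA library, with a log2 fold change of 0.27 ± 0.12 and an edgeR adjusted p of 0.221. UBE2D2, UBE2D3 and UBE2D4 were at -0.16 ± 0.12, -0.15 ± 0.12 and 0.19 ± 0.15, and UBE2L3, the partner of ARIH1, was at -0.25 ± 0.12. UBE2M and UBE2F, the E2s for NEDD8, were at -0.20 ± 0.12 and -0.07 ± 0.13, and neither had an unadjusted p under 0.05.

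The large and atypical members other than UBE2QL1 had estimates near 0. UBE2O, UBE2Q1, UBE2Q2 and UBE2Z had log2 fold changes of 0.06 ± 0.12, -0.04 ± 0.11, -0.08 ± 0.12 and -0.02 ± 0.13 (SE). Of the pseudogenes, UBE2Q2P3 was at 11.4, 7.33 and 4.21 CPM against 16.1, 13.4 and 5.84 CPM. The groups overlapped, but each paxillin siRNA library was above the control of the same number, with a log2 fold change of 0.62 ± 0.44 (SE, edgeR adjusted p = 0.434, block 0.0199). Its locus overlaps that of UBE2Q2P2, which had a log2 fold change of -0.07. UBE2MP1 was at 113, 122 and 103 CPM against 97.3, 91.8 and 98.2 CPM, with no overlap and an edgeR adjusted p of 0.293. UBE2F-SCLY, with a mean of 1.24 CPM in the controls and 0 in paxillin siRNA replicate 1, had an SE of 1.01 and could not be placed.

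Compared by replicate number, 21 of 39 members were lower with paxillin siRNA in all 3 pairs of libraries, 5 were higher in all 3 and 13 were mixed. The 21 include UBE2N with UBE2NL and UBE2M with UBE2MP1, which are not independent. Neither these counts nor those of the order of pairs below were made over all genes, so they are descriptions only. The median log2 ratio over 38 members, without UBE2F-SCLY, was -0.18, -0.28 and -0.07 in pairs 1, 2 and 3. Of 29 members with an estimate below 0, the ratio was nearest to 0 or above it in pair 3 for 25, and most negative in pair 2 for 22, in pair 1 for 6 and in pair 3 for 1, which was UBE2G2. The mitosis genes had the same order of pairs, with median log2 ratios of -1.45, -1.77 and -0.28. The interferon genes differed less between pairs, at 2.25, 2.15 and 1.98. For UBE2C the ratios were -1.75, -2.42 and -0.79, for UBE2QL1 -2.13, -2.10 and -1.04, and for UBE2G2 -0.46, -0.95 and -1.03.

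**Figure D4:**
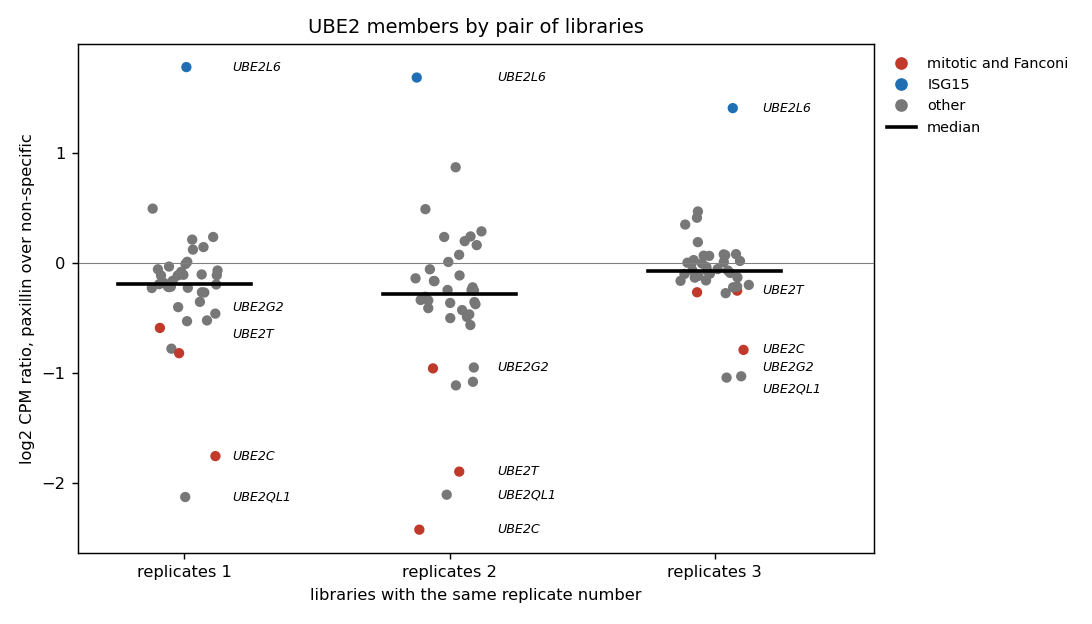
Log2 ratio of TMM-scaled CPM, paxillin over non-specific siRNA, of 38 UBE2 members in each pair of libraries with the same replicate number; 1 point is 1 member and the bar is the median. The medians are -0.18, -0.28 and -0.07, UBE2L6 is far above 0 in all 3 pairs, and UBE2C, UBE2T and UBE2QL1 are nearer to 0 in pair 3.

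Levels of different members were compared on the FPKM scale, which accounts for length. In the control libraries UBE2S was the highest at 47.4 ± 11.9 FPKM (SD, n = 3), then UBE2MP1 at 44.2 ± 4.00, UBE2V1 at 43.6 ± 1.65, UBE2D3 at 34.7 ± 0.85 and UBE2Z at 31.95 ± 1.67 FPKM. The first 3 did not differ beyond their spread. With paxillin siRNA the order was UBE2MP1 at 35.7 ± 2.53, UBE2L6 at 35.1 ± 8.16, UBE2D3 at 30.2 ± 3.27, UBE2Z at 29.8 ± 3.62 and UBE2S at 27.6 ± 5.35 FPKM, and the neighbours in this order did not differ beyond their spread. UBE2L6 went from rank 18 of 41 at 11.9 ± 2.56 FPKM to rank 2, and UBE2C from rank 9 at 22.7 ± 6.74 FPKM to rank 22 at 6.76 ± 2.32 FPKM. UBE2G2 went from rank 10 to 14 and UBE2V1 from rank 3 to 6, while UBE2T, at 4.21 ± 1.72 and 2.10 ± 0.67 FPKM, stayed low in both. These ranks, and the sums that follow, include UBE2N with UBE2NL and UBE2M with UBE2MP1, near copies whose values are uncertain. The place of UBE2MP1 in the order is therefore uncertain too. The summed FPKM of the 41 members was 523, 578 and 534 in the controls and 423, 426 and 483 with paxillin siRNA, and their share of all estimated counts was 0.304% to 0.333% against 0.286% to 0.292%. The groups did not overlap on either measure, and paxillin siRNA replicate 3 was the highest of its group on both. On log2(FPKM + 1) the median log2 fold change over 11310 genes was itself below 0, at -0.08 (limma), against 0.00 in edgeR. The part of that shift in the lower FPKM sum was not tested.

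**Figure D5:**
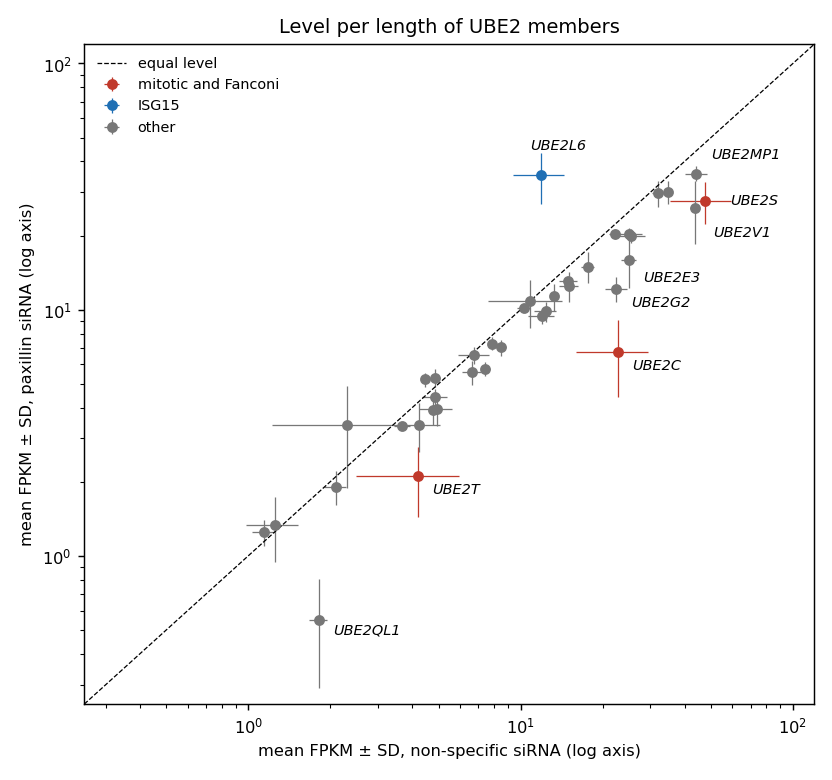
Mean FPKM ± SD (n = 3) of 38 UBE2 members with non-specific siRNA (horizontal, log axis) and paxillin siRNA (vertical, log axis); the dashed line marks equal levels, and UBE2U, UBE2DNL and UBE2F-SCLY, all under 0.5 FPKM, are not drawn. UBE2L6 lies above the line at 11.9 and 35.1 FPKM, and UBE2C and UBE2QL1 lie farthest below it.

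In the steps before and beside the UBE2 enzymes few genes passed the test. Of 10 E1 genes, 1 rose, UBA7, and 0 fell, with and without the block, and the median log2 fold change was -0.20. UBA6, an E1 for ubiquitin, was at -0.30 ± 0.14, and SAE1, a subunit of the SUMO E1, at -0.33 ± 0.16 (SE). Of 8 E2s and E2-like genes with other names, 0 were called by edgeR in either fit and 0 had an unadjusted p under 0.05, with a median of -0.10, and those with the smallest p were UEVLD, ATG10 and UFC1. Of 11 tested genes for ubiquitin and its relatives, 0 were called without the block (3 with an unadjusted p under 0.05), and 2 were lower and 1 higher with it. SUMO3, one of the lower genes, was at 204, 232 and 221 CPM against 126, 120.1 and 181 CPM, without overlap (edgeR adjusted p = 0.107, block 0.00864). The higher one was ISG15.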

How the data were processed

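RNA sequencing of PC3 cells gave 6 libraries, 3 per group, from TruSeq mRNA libraries, per the labels' protocols. The titles of the samples gave each library's group and number. The authors deposited estimated counts and FPKM for each gene and library, per the file headers. Cufflinks 2.0.2, FastQC 0.10.1 and the build hg19 are listed in the submitters' processing notes. The sources used here do not give the aligner, annotation, strand setting or siRNA sequences.

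The test on rounded estimated counts was that of edgeR 4.0.16 under R 4.3.3 (TMM, filterByExpr, quasi-likelihood test, group only, two-sided), with Benjamini-Hochberg adjustment over 15876 genes and a threshold of 0.05. CPM were TMM-scaled, and an SE is the log2 fold change divided by the square root of F. Alternatives used DESeq2 1.42.0, limma 3.58.1 on log2(FPKM + 1) and log2(FPKM + 0.1), and the settings in the closing section. Each library's counts were multiples of 1 step within 0.05 for 90.8% to 91.7% of values above 0, which gave the single reads. The fits were tested on simulated data.

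Whether replicate numbers pair the libraries was checked on their deviations from group means: same-numbered libraries correlated across genes at 0.37, 0.47 and 0.60, and the others at -0.55 to 0.12. The numbers come from the labels, which do not say what they stand for. All 3 same-numbered values were above 0.1, the minimum set for pairing, so the fit with the block is printed where it changed a call. Non-specific siRNA replicate 1 with paxillin siRNA replicate 2, at 0.12, was above that minimum too, so passing it does not by itself show pairing.

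Members, roles and lists were chosen with earlier results of these data known. Values per library were given for UBE2C, UBE2S, UBE2T, UBE2L6, UBE2QL1, members called, the 5 largest changes, the 3 highest by FPKM and up to 10 with the smallest block p. At most 3 genes per list, those with the smallest p, were named, except where stated. Floors cover counting error only. Some genes, 1 tested member among them, are counted in the totals but not reported here.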

Additional observations from a re-analysis of the deposited data

How the results depend on the processing

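Without the block 3 members were called lower and 1 higher. With the replicate block these were 7 and 2, and with DESeq2 6 and 1. Limma on log2(FPKM + 1), on log2(FPKM + 0.1) and on log2(FPKM + 1) with no filter called 0 lower and 0 higher, with 14, 12 and 15 lower and 1, 1 and 2 higher at an unadjusted p under 0.05. Size factors by RLE, no filter and counts in single reads each gave 3 and 1, and no TMM factor, an alternative chosen after seeing the data, gave 2 and 1. Leaving out 1 library in turn gave 0 to 6 lower and 0 to 1 higher. The lower count was 0 without non-specific siRNA replicate 1 or 2 or paxillin siRNA replicate 1 or 2 (where 6 to 7 had an unadjusted p under 0.05). It was 1 when non-specific siRNA replicate 3 was left out and 6 without paxillin siRNA replicate 3. The higher count was 1 without paxillin siRNA replicate 3 and 0 without any other library (1 to 2 at an unadjusted p under 0.05). Fewer libraries enter these fits, and the cause was otherwise not tested. For limma and for the fits with a library left out, counts at an unadjusted p were not made over all genes. They are descriptions only. Over all genes the calls ranged from 0 without non-specific siRNA replicate 1 or 2 to 1271 lower and 1169 higher without paxillin siRNA replicate 3. Non-overlapping groups numbered 17 members, 15 lower and 2 higher. They numbered 21 on FPKM, 19 lower and 2 higher, against 18.3% of all genes lower and 10.4% higher. With no TMM factor they numbered 12, 10 lower and 2 higher, against 12.6% and 15.6%. The 11 members chosen by the rule for values per library (UBE2C, UBE2S, UBE2T, UBE2L6, UBE2QL1, UBE2G2, UBE2V1, UBE2E2, UBE2E3, UBE2MP1 and UBE2Q2P3) kept their sign in every fit, and their values fell on the same side of the threshold in 122 comparisons, newly passed in 11 and no longer passed in 32. Of all 39 tested members 31 kept their sign, and UBE2F, UBE2F-SCLY, UBE2H, UBE2O, UBE2Q1, UBE2Q2P2, UBE2W and UBE2Z did not. Counts at or near 0 limit what can be said of UBE2U and UBE2DNL. Low and scattered counts limit UBE2F-SCLY, whose locus is shared with UBE2F and SCLY, so reads may have been split.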
